A study of Mus musculus with 10 samples.

Results

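The genes described here build and fill the lysosome. They are 37 listed mouse genes: 16 subunits and accessory proteins of the vacuolar proton pump (V-ATPase), 5 membrane proteins, 2 cholesterol exporters, 9 hydrolases, 2 precursor proteins and 3 transcription factors of the MiT/TFE family. They were taken by symbol from gene tables of 41813 genes. All 37 were found, and all 37 were among the 13946 genes that passed the filter on low counts. The filter was not chosen on these genes.

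RNA was sequenced from bone marrow-derived dendritic cells of the mouse, described as CD11c+ MHCIIhigh, in 3 libraries titled activated and 3 titled non-activated. By the study's design text, dendritic cells of both groups were incubated with LPS, a bacterial ligand of Toll-like receptor 4. The activated cells were also pulsed with OVA323-339, a peptide of ovalbumin, and the non-activated ones were not. For 24 h both were then kept with CD4+ OT-II T cells, which carry a transgenic receptor for that peptide. The sample labels instead give LPS to the activated libraries alone, and this conflict could not be settled from the files, so the groups are called by their titles. The labels give no genotype, age or sex for the mice. Nor do they tie replicates to different animals or cultures, and the p-values then reflect only how far these libraries spread, which may be technical. The series has 4 further ATAC-seq samples, not analysed here.

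The V-ATPase is a rotary pump. Its V1 sector, which faces the cytosol, hydrolyses ATP, and its V0 sector, set in the membrane, carries protons into the lumen. The acid that it makes activates the hydrolases that take apart protein, sugar and lipid. In dendritic cells the acidity and protease content of lysosomes are known to set how antigen is cut for MHC class II, and maturation is known to move V1 onto V0. TFEB, TFE3 and MITF switch on many lysosomal genes through short DNA words around CACGTG, and Tfeb is known in mouse dendritic cells to favour presentation on MHC class II over cross-presentation.

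Summed expected counts were 21338012 to 27404937 in the activated group and 23441520 to 25789923 in the other. Dendritic cell markers were present in every library: 12 of 12 had a mean of at least 1 CPM (the count scaled to the depth of the library), and they summed to 15623 to 17866 CPM in the activated libraries and 12561 to 14551 CPM in the non-activated ones. These markers did not move together, and log2 fold changes lay below 0 for 6 of the 12. Fscn1 averaged 3122 CPM in activated against 533 CPM in non-activated libraries and Ccr7 1798 against 638 CPM, while Cd74 averaged 6852 against 7801 CPM. Macrophage markers overlapped between groups, with 11 of 12 at a mean of 1 CPM or more, Vsig4 under 1 CPM, and sums of 2234 to 2916 CPM in activated against 2005 to 2626 CPM in non-activated libraries. Osteoclast markers, which matter because Atp6v0d2 is one of that cell's genes, had 6 of 9 at that level, with Calcr and Oscar under 1 CPM in every library and sums of 294 to 457 CPM against 358 to 447 CPM. Of the 7 tested, edgeR's test described below had 2 higher and 0 lower, beside 15.9% and 11.7% of all tested genes. Ocstamp averaged 11.3 CPM in activated against 4.34 CPM in non-activated libraries, and Mmp9 0.960 against 0.188 CPM. With a replicate block, also described below, 2 were higher and 1 lower, beside 20.0% and 17.2%. The lower gene was Itgb3, at 16.8 against 28.9 CPM. Markers of mast cells and basophils, 2 of 6 at a mean of 1 CPM or more, summed to 26.5 to 45.3 CPM in the activated and 79.5 to 91.6 CPM in the non-activated libraries. Cpa3, Mcpt8, Ms4a2 and Fcer1a were under 1 CPM in every library, so the sum is mostly Kit and Gata2. Markers of B cells and of neutrophils each summed to at most 3.97 CPM in any library. The part of these cells in the results below was not tested. In bulk RNA, fewer cells of a type and less RNA per cell cannot be told apart.

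Both libraries numbered 1 stood apart. Trac, the constant part of the T cell receptor alpha chain, had 7420, 8.88 and 27.8 CPM in the 3 activated libraries and 7444, 2.73 and 5.11 CPM in the 3 non-activated ones. Trbc2, of the beta chain, had 107, 1.45 and 1.88 CPM in the activated libraries and 106, 0.53 and 0.69 CPM in the others. Cd3e, another part of that receptor, had 1.90 CPM or less in every library, and Cd3d stayed under 1 CPM. Without Trac and Trbc2, the 13 T cell markers left, Cd3d and Cd3e among them, summed to 392 to 459 CPM in the activated libraries and 512 to 559 CPM in the non-activated ones, most of it Il7r. Cd3d, Cd3e, Cd4, Cd247, Trbc1, Trbc2, Lck, Cd2, Bcl11b and Themis were higher in activated libraries in every pair of like number. Cd28 and Il7r were lower in every pair. Of the 7 tested, edgeR's test described below had 2 higher and 1 lower, beside 15.9% and 11.7% of all tested genes. From activated to non-activated, Lck averaged 4.37 and 1.00 CPM, Cd247 3.79 and 1.65 CPM, and Il7r, the lower gene, 403 and 504 CPM. Of the 13 markers other than Trac and Trbc2, all but Cd28 and Il7r were highest in activated replicate 1, at 6.13 CPM or less. From activated replicate 1 to 3, Cd3e had 1.90, 0.245 and 0.408 CPM, Bcl11b 2.33, 0.0981 and 0.204 CPM and Cd5 6.13, 1.08 and 0.939 CPM. In non-activated replicate 1 they had 0.152, 0.0381 and 2.17 CPM. Cd28 instead had its lowest value, 9.96 CPM, in activated replicate 1. The part of T cell RNA in the results was not tested. The main counts of called genes, though not those of each role, are therefore given below with and without both number 1 libraries.

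Lysosomal genes were, as a set, among the most abundant RNAs of these cells. By mean TPM over the 6 libraries (which scales by transcript length as well as depth and so compares genes), 23 of the 37 lay in the top 10% of tested genes and 36 above the median. Psap, the precursor of the saposins that help enzymes reach sphingolipids, led with 9018 TPM, followed by Atp6v0c with 1282 TPM, Laptm5 with 877 TPM, Npc2 with 772 TPM and Lamp1 with 694 TPM. The least abundant were the regulators Mitf with 20.6 TPM and Tfeb with 10.8 TPM. Psap alone gave 49.4% ± 2.82 of the TPM of all 37 genes in activated libraries and 50.7% ± 1.21 in non-activated ones (SD, n = 3 each).

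Activated dendritic cells had lower levels of 7 lysosomal genes and higher levels of 2, by edgeR's quasi-likelihood test with Benjamini-Hochberg adjustment over all tested genes at a threshold of 0.05. The lower ones were Tfeb, Laptm5, Lamp1, Gla, Mcoln1, Lipa and Atp6v0d1, and the higher ones were Atp6v0a1 and Mitf. In each direction the share has to be read against the whole table: 18.9% of these genes were lower against 11.7% of all tested genes, and 5.41% were higher against 15.9%. Counted in either direction, 24.3% of these genes passed against 27.6% of all tested genes. The median log2 fold change over the 37 genes was -0.23, beside 0.006 over all tested genes, and 30 of 37 (81.1%) lay below 0, beside 49.3% of all tested genes. Without both number 1 libraries 5 were lower and 2 higher, since Atp6v0d1, Gla and Lipa no longer passed and Hexa did, while the count over all genes was 3274, against 3848 with every library. Leaving out activated replicate 2 gave 15 lower genes, and leaving out any other single library gave 3 to 6, the lowest being 4 without non-activated replicate 1 and 3 without non-activated replicate 2. Over all genes, 3199 were called in either direction without activated replicate 2 and 2679 to 3629 without any other single library. Higher genes numbered 2 without activated replicate 1, 1 without non-activated replicate 1 and 0 without any other library, with 2 or 3 at an unadjusted p under 0.05 in edgeR.

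The count of lower genes depended strongly on whether replicate numbers were used. Libraries with the same number deviated together across genes, and a fit with the replicate number as a block called 21 of the 37 genes lower (56.8%, against 17.2% of all tested genes) and 3 higher (8.11%, against 20.0%). All 9 genes that passed without the block passed with it, and 15 passed with it alone, of which 14 were lower and Atp6v1a was higher. Without number 1 the blocked fit called 23 lower and 5 higher, without number 2 it called 10 lower and 0 higher, and without number 3 it called 17 lower and 0 higher. Over all genes these fits called 5448, 3184 and 3978, against 5184 with all libraries. At an unadjusted p under 0.05, 2 of the 37 genes were higher without number 2 and 2 without number 3. Without the block, leaving out both number 3 libraries left 0 of the 37 genes called, with 6 lower and 0 higher at an unadjusted p under 0.05. That fit called 1785 genes over the whole table.

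The pairs of like number show the same in raw form. From pair 1 to pair 3, activated was below non-activated for 32, 27 and 27 of the 37 genes, with median differences in log2(CPM + 1) of -0.37, -0.21 and -0.17, beside -0.001, 0.008 and 0.015 over all tested genes. All 3 pairs were lower for 24 genes (64.9%, against 31.2% of all tested genes) and higher for 4 (10.8%, against 33.0%). Values of 13 genes were lower with no overlap between groups (35.1%, against 20.7%) and of 4 higher (10.8%, against 24.0%), and the other 20 overlapped.

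Library to library variation was itself shared across these genes. Activated replicate 1 had the lowest value of all 6 libraries for 27 of the 37 genes (73.0%), against 22.1% of all tested genes. Replicate 2 was the highest in both groups at once for 29 (78.4%), against 18.4% of all tested genes. Of the 20 genes whose groups overlapped, 11 had paired differences of 1 sign and 9 did not.

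**Figure D1:**
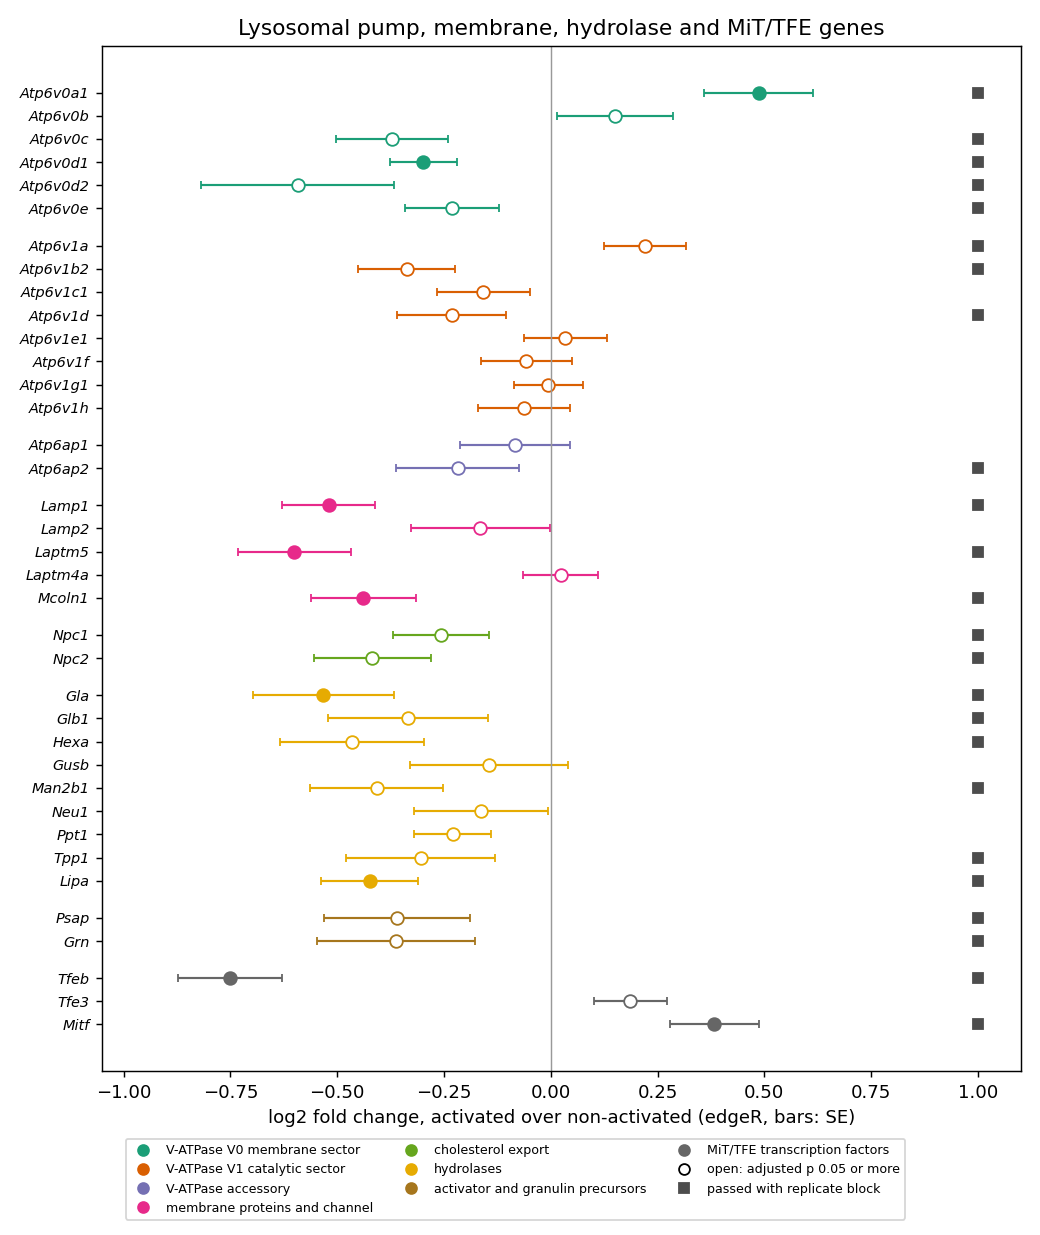
Log2 fold change, activated over non-activated, of each of the 37 genes, grouped by role, with bars of 1 standard error from edgeR (n = 3 libraries a group). Most points lie left of 0, from -0.75 for Tfeb to 0.49 for Atp6v0a1.

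**Figure D2:**
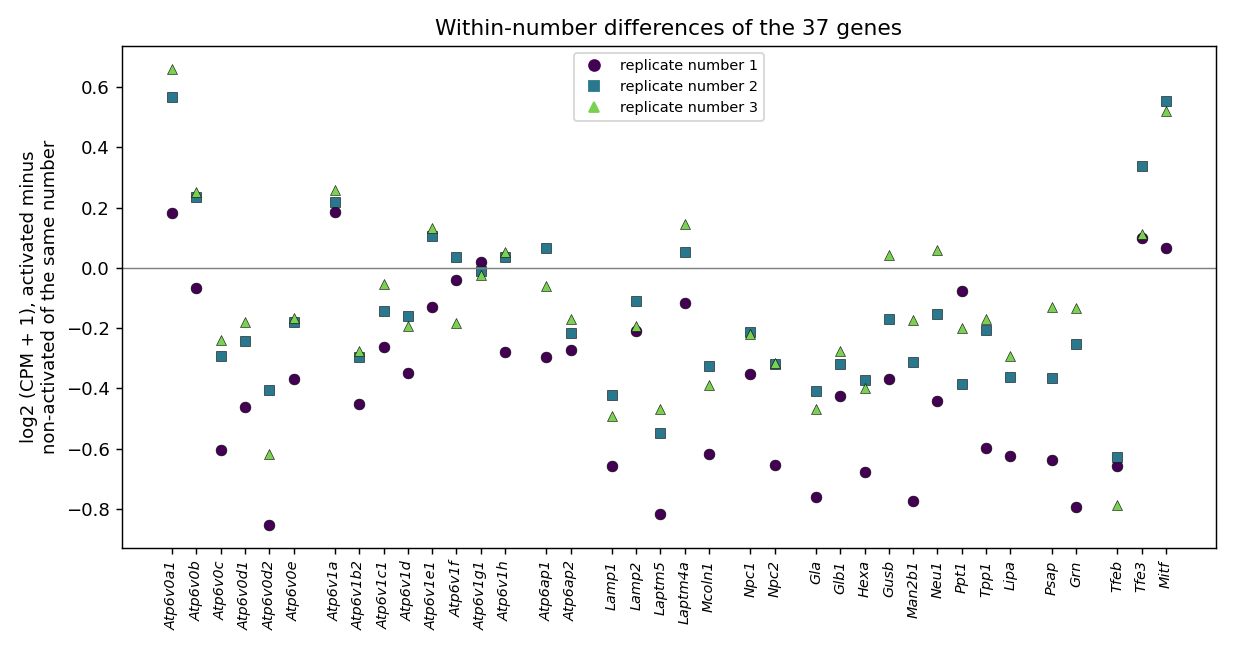
Difference in log2(CPM + 1), activated minus non-activated, for each gene in each pair of libraries with the same replicate number. Of the 37 genes, 24 lie below 0 in all 3 pairs and 4 lie above 0 in all 3.

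The subunits of the membrane sector of the pump did not all go the same way. Of the 6, Atp6v0d1 was lower and Atp6v0a1 higher, and with the replicate block 4 were lower and 1 higher. Such counts for a role, here and below, have to be read against all tested genes. Of those, 11.7% were lower and 15.9% higher, or 17.2% and 20.0% with the block. Atp6v0a1, an isoform of the large a subunit that lines the proton path (chr11:101009422-101063719 on GRCm38.p6, as are all positions here), had 162, 226 and 223 CPM in the activated libraries and 143, 152 and 141 CPM in the non-activated ones. Every activated library lay above every non-activated one, with activated replicate 1 the closest. The fold was 1.40 (log2 0.49 ± 0.13 SE, edgeR adjusted p = 0.0230). The call was kept without activated replicate 1 and lost without any other single library, with adjusted p from 0.000797 to 0.0872.

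As a share of its subunit family the isoform was also higher in every activated library. Atp6v0a1 made 13.7%, 13.5% and 14.1% of the summed TPM of Atp6v0a1, Atp6v0a2 and Tcirg1 in activated libraries, against 12.7%, 12.3% and 12.6% in non-activated ones. The groups did not overlap, with a difference of 1.24 percentage points (two-sided exact permutation p = 0.1, the smallest that 3 against 3 libraries can give, or 0.2 adjusted over the 6 shares tested).

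The d subunit, the collar that ties V1 to the proton ring, comes in 2 forms, the widespread Atp6v0d1 and Atp6v0d2, which is known from osteoclasts and macrophages. Atp6v0d1 (chr8:105524461-105566064) had 119, 127 and 128 CPM in the activated libraries and 165, 150 and 145 CPM in the non-activated ones. All activated values were below all non-activated ones, by a fold of 0.813 (log2 -0.30 ± 0.08 SE, edgeR adjusted p = 0.0235). The gene no longer passed once non-activated replicate 1 or 2 was left out, and the adjusted p was 0.0877 without both number 1 libraries, in a range of 0.00487 to 0.114 over all alternatives.

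Atp6v0d2 (chr4:19876838-19922566) had 147, 275 and 176 CPM in the activated libraries and 266, 364 and 270 CPM in the non-activated ones. Activated replicate 2 exceeded 2 of the non-activated libraries, so the groups overlapped, although each pair was lower, by -0.85, -0.41 and -0.62 in log2(CPM + 1). The fold was 0.663 (log2 -0.59 ± 0.23 SE), with an adjusted p of 0.0870 in edgeR's test and 0.00124 with the replicate block, in a range of 2.97e-09 to 0.294 over all alternatives. Its share of the TPM of both d forms was 42.7%, 56.7% and 45.2% in activated libraries, against 49.4%, 59.3% and 52.9% in non-activated ones. The difference of -5.65 percentage points did not pass an unpaired test (two-sided exact permutation p = 0.3), while each pair of like number was lower, by -6.67, -2.57 and -7.70 points. The difference lay between -9.91 without activated replicate 2 and -2.89 without activated replicate 1.

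Of the other V0 subunits, Atp6v0c, the ring-forming proteolipid, had 647, 871 and 755 CPM in the activated libraries and 983, 1066 and 892 CPM in the non-activated ones. The groups did not overlap, at a fold of 0.772 that missed the threshold (edgeR adjusted p = 0.0679) and passed with the block (0.0133, in a range of 0.000145 to 0.234 over all alternatives). Atp6v0e, a small subunit, averaged 228 ± 29.9 CPM in the activated and 268 ± 19.5 CPM in the non-activated libraries (SD, n = 3 each), and passed with the block alone. Atp6v0b, another proteolipid, went the other way in 2 of 3 pairs, with 241 ± 42.7 CPM against 217 ± 21.5 CPM and a fold of 1.11 that did not pass.

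In the catalytic V1 sector, 0 of 8 subunits passed edgeR's test in either direction. At an unadjusted p under 0.05, 1 was higher and 1 lower; DESeq2 called 1 lower, limma on TPM 0, and the blocked fit 1 higher and 2 lower. The subunits of the catalytic head lay on opposite sides. Atp6v1a, the catalytic A subunit on chromosome 16, had 448, 494 and 435 CPM in the activated libraries and 394, 425 and 363 CPM in the non-activated ones. Every activated value exceeded every non-activated one, at a fold of 1.17 (edgeR adjusted p = 0.125, and 0.0360 with the block, in a range of 0.00674 to 0.349).

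Atp6v1b2, the B subunit that completes the catalytic head, had 366, 466 and 413 CPM in the activated libraries and 500, 572 and 500 CPM in the non-activated ones. Here every activated value was below every non-activated one, at a fold of 0.792 (edgeR adjusted p = 0.0577, and 0.00796 with the block, in a range of 0.000147 to 0.213). Atp6v1d, of the central stalk, was the other subunit that passed with the block, at a fold of 0.852. The remaining V1 subunits, Atp6v1c1, Atp6v1e1, Atp6v1f, Atp6v1g1 and Atp6v1h, had folds of 0.896 to 1.02 and passed in neither fit. The accessory proteins Atp6ap1 and Atp6ap2 had folds of 0.943 and 0.860, and Atp6ap2 passed with the block alone.

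Added up on the TPM scale, the 16 pump genes gave 3491, 4665 and 4186 TPM in activated libraries and 4408, 5131 and 4605 TPM in non-activated ones. The sums overlapped between groups, with means of 4114 ± 590 and 4715 ± 374 TPM (SD, n = 3 each). The log2 ratio of the means was -0.20, and the pairs gave -0.34, -0.14 and -0.14.

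Of the 5 lysosomal membrane proteins, 3 were lower with or without the block, and their median log2 fold change of -0.44 was the lowest of the roles described here. Lamp1 (chr8:13159161-13175338), a heavily glycosylated protein that lines the lysosome, had 712, 881 and 771 CPM in the activated libraries and 1125, 1181 and 1085 CPM in the non-activated ones. The groups stood well apart, at a fold of 0.697 (log2 -0.52 ± 0.11 SE, edgeR adjusted p = 0.00872). Its call held without each library in turn, with adjusted p from 0.00737 to 0.0397. It was lost without both number 3 libraries, in a range of 1.94e-09 to 0.0956 over all alternatives.

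Laptm5 (chr4:130912890-130936148), a lysosomal protein of blood cells that sends antigen receptors to degradation in lymphocytes, had 728, 978 and 949 CPM in the activated libraries and 1283, 1430 and 1313 CPM in the non-activated ones. No activated value reached the non-activated ones, at a fold of 0.660 (log2 -0.60 ± 0.13 SE, edgeR adjusted p = 0.0106). Its call too held without each library in turn, with adjusted p from 0.00768 to 0.0448. It was lost without both number 2 or both number 3 libraries and on TPM without a filter, in a range of 7.35e-11 to 0.0881 over all alternatives.

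Mcoln1 (chr8:3500519-3515232) encodes the channel TRPML1, which lets calcium out of the lysosome. It had 48.6, 67.4 and 62.5 CPM in the activated and 75.2, 84.8 and 82.1 CPM in the non-activated libraries, with no overlap. The fold was 0.738 (log2 -0.44 ± 0.12 SE, edgeR adjusted p = 0.0300), and leaving out non-activated replicate 2 or 3 ended the call. The deposited effective length of this gene, a transcript length weighted by abundance that enters TPM, was 1117, 1152 and 1195 bases in activated libraries and 1282, 1287 and 1287 bases in non-activated ones. On the log2(TPM + 1) scale, which takes that length into account, the change was -0.30 with an adjusted p of 0.167 by limma, in a range of 0.000149 to 0.273 over all alternatives.

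Lamp2, the partner of Lamp1, had 471, 689 and 553 CPM in the activated libraries and 545, 743 and 632 CPM in the non-activated ones. These overlapped, and the fold of 0.892 passed in neither fit. Laptm4a, a relative of Laptm5, averaged 196 ± 2.98 CPM in the activated and 193 ± 19.2 CPM in the non-activated libraries (SD, n = 3 each), a fold of 1.02 whose direction turned under upper-quartile scaling. Over the 5 genes, summed TPM was 1938 ± 305 in activated and 2667 ± 224 in non-activated libraries (SD, n = 3 each).

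Of the 2 cholesterol exporters, 0 passed edgeR's test, 1 had an unadjusted p under 0.05, DESeq2 called 1 lower and limma on TPM 0. Both were lower with the block. Npc2, the soluble carrier that takes cholesterol from the lumen, had 1098, 1535 and 1427 CPM in the activated libraries and 1730, 1916 and 1776 CPM in the non-activated ones. There was no overlap, at a fold of 0.749 (edgeR adjusted p = 0.0530, and 0.00858 with the block, in a range of 9.49e-06 to 0.202). Npc1, the membrane protein that receives it, had 190, 247 and 219 CPM in the activated libraries and 243, 287 and 255 CPM in the non-activated ones, which overlapped, at a fold of 0.837.

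**Figure D3:**
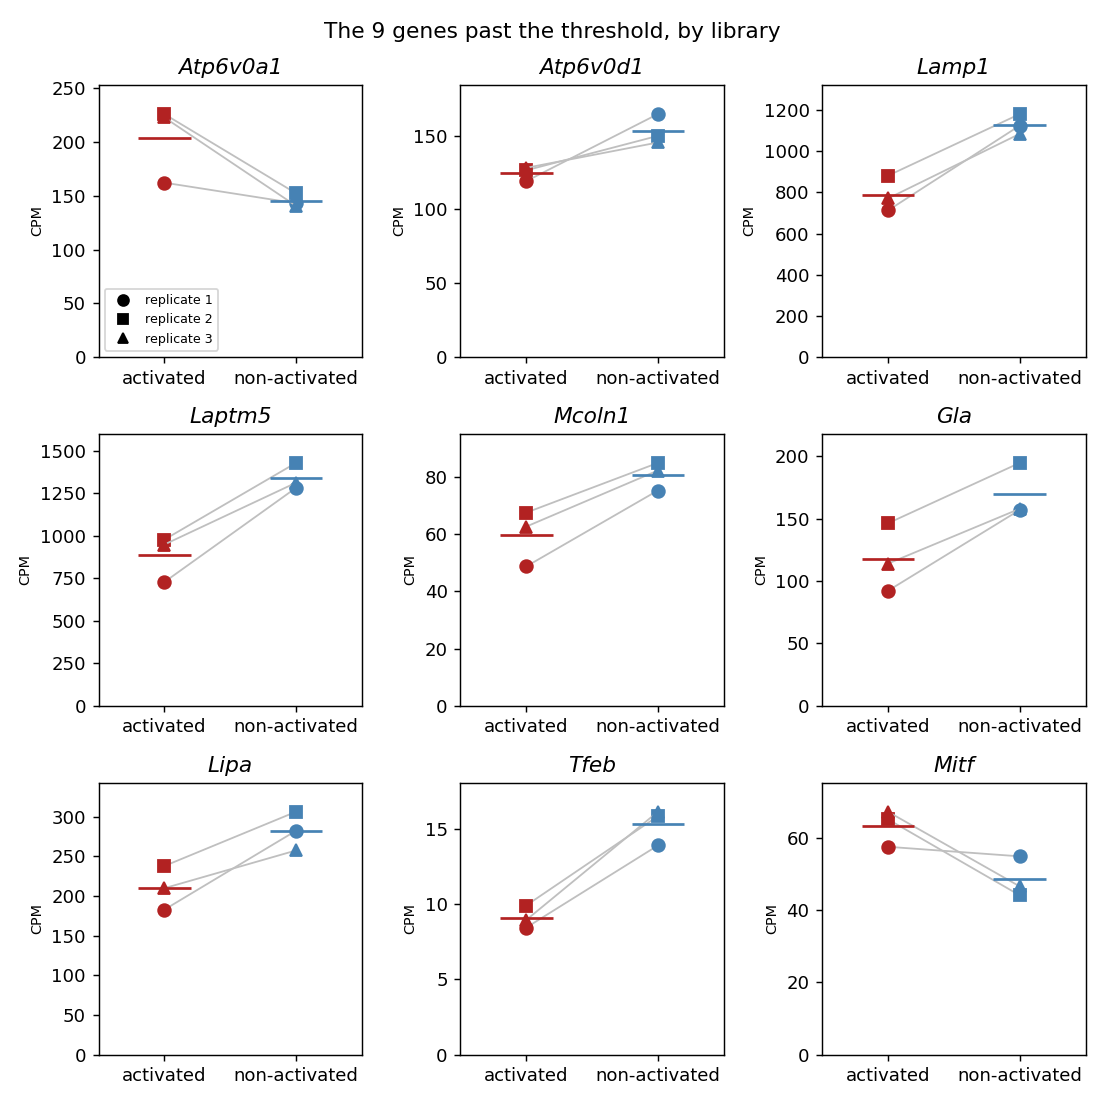
CPM of the 9 genes that passed edgeR's test, 1 point per library with activated left of non-activated, lines joining libraries of the same replicate number, and horizontal bars for the mean (n = 3). The 3 activated values are all below the 3 non-activated ones for the 7 lower genes and all above them for Atp6v0a1 and Mitf.

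All 9 hydrolases had log2 fold changes below 0, with a median of -0.33. Only Gla and Lipa passed edgeR's test, and 6 were lower with the block. Gla (chrX:134588169-134601005), alpha-galactosidase A, which trims globotriaosylceramide, had 92.1, 146 and 114 CPM in the activated libraries and 157, 195 and 158 CPM in the non-activated ones. All activated values lay below the non-activated ones, at a fold of 0.692 (log2 -0.53 ± 0.16 SE, edgeR adjusted p = 0.0435). The call was kept without activated replicate 2 and lost without any other single library. Its effective length was 2456, 2253 and 2460 bases in activated libraries, against 2805, 2738 and 2525 bases, and the change on the log2(TPM + 1) scale was -0.39 with a limma adjusted p of 0.240, in a range of 2.92e-07 to 0.391 over all alternatives.

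Lipa (chr19:34492316-34527474), the acid lipase that frees cholesterol and fatty acids from stored lipid, had 183, 238 and 210 CPM in the activated libraries and 282, 306 and 258 CPM in the non-activated ones. No values overlapped, at a fold of 0.745 (log2 -0.42 ± 0.11 SE, edgeR adjusted p = 0.0247). Leaving out activated replicate 3, or else non-activated replicate 1 or 2, ended the call, and without both number 1 libraries the adjusted p was 0.0631, in a range of 2.37e-05 to 0.105 over all alternatives.

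Hexa, the alpha subunit of beta-hexosaminidase, had 252, 399 and 337 CPM in the activated libraries and 403, 517 and 445 CPM in the non-activated ones. The groups did not overlap, by a narrow margin, at a fold of 0.724 (edgeR adjusted p = 0.0738, and 0.00272 with the block, in a range of 5.79e-07 to 0.257). Glb1 (beta-galactosidase), Man2b1 (alpha-mannosidase) and Tpp1 (a tripeptidyl peptidase) passed with the block alone, at folds of 0.793, 0.754 and 0.810. Ppt1, which removes palmitate from proteins, was tightly grouped in activated libraries with 53.0, 52.3 and 51.7 CPM, against 55.9, 68.7 and 59.5 CPM in non-activated ones, and passed in neither fit. Gusb (beta-glucuronidase) and Neu1 (a sialidase) had folds of 0.904 and 0.893, each with pair 3 above 0.

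The precursors varied widely between libraries, and both were lower with the block alone. Psap had 9751, 14754 and 14513 CPM in the activated libraries and 15182, 18999 and 15891 CPM in the non-activated ones. These did not overlap, at a fold of 0.779 that missed the threshold (edgeR adjusted p = 0.158, and 0.0392 with the block, in a range of 0.000395 to 0.639). Grn, the precursor of the granulins, had 229, 392 and 357 CPM in the activated libraries and 398, 466 and 391 CPM in the non-activated ones, which overlapped, at a fold of 0.778. In both genes activated replicate 1 was far the lowest library.

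The MiT/TFE transcription factors went in opposite directions, with 1 lower and 1 higher in either fit. Tfeb (chr17:47737037-47792416) had 8.44, 9.91 and 8.94 CPM in the activated and 13.9, 15.8 and 16.1 CPM in the non-activated libraries. The groups stood well apart, at a fold of 0.594 (log2 -0.75 ± 0.12 SE, edgeR adjusted p = 0.00270), the smallest adjusted p of the 37 genes. The call held without each library in turn, with adjusted p from 0.00533 to 0.0160. Its effective length was 1679, 1623 and 1340 bases in activated libraries and 1917, 1597 and 1824 bases in non-activated ones. On the log2(TPM + 1) scale the change was -0.51 with a limma adjusted p of 0.0871, and on the log2(TPM + 0.1) scale it was -0.55 with one of 0.0863, in a range of 1.39e-05 to 0.176 over all alternatives.

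Mitf (chr6:97807002-98021360), best known from pigment cells and osteoclasts, had 57.5, 65.1 and 67.2 CPM in the activated and 54.9, 44.1 and 46.6 CPM in the non-activated libraries. Every activated value was above every non-activated one, by little in the number 1 pair, at a fold of 1.30 (log2 0.38 ± 0.10 SE, edgeR adjusted p = 0.0271). The call survived leaving out either number 1 library and was lost without any other single library, with adjusted p from 0.0169 to 0.105. On the log2(TPM + 1) scale the change was 0.44 with a limma adjusted p of 0.0647, in a range of 1.04e-05 to 0.225 over all alternatives. Tfe3 had 93.7, 103 and 87.5 CPM in the activated and 87.4, 81.4 and 80.9 CPM in the non-activated libraries, just without overlap, at a fold of 1.14 that passed in neither fit.

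On the TPM scale the shares of Tfeb and Mitf in the family did not overlap between groups. Tfeb made 8.76%, 9.13% and 11.3% of the summed TPM of the 3 factors in activated libraries, against 12.1%, 17.4% and 17.7% in non-activated ones. Mitf made 25.4%, 25.7% and 28.7% in activated libraries, against 23.8%, 18.2% and 21.5%. Neither overlapped, with differences of -5.98 and 5.44 percentage points (two-sided exact permutation p = 0.1 each, the smallest this test can give here, or 0.2 with Benjamini-Hochberg adjustment over the 6 shares tested). Tfe3 held 63.6% ± 3.20 in activated and 63.1% ± 2.02 in non-activated libraries (SD, n = 3 each), a difference within the spread.

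**Figure D4:**
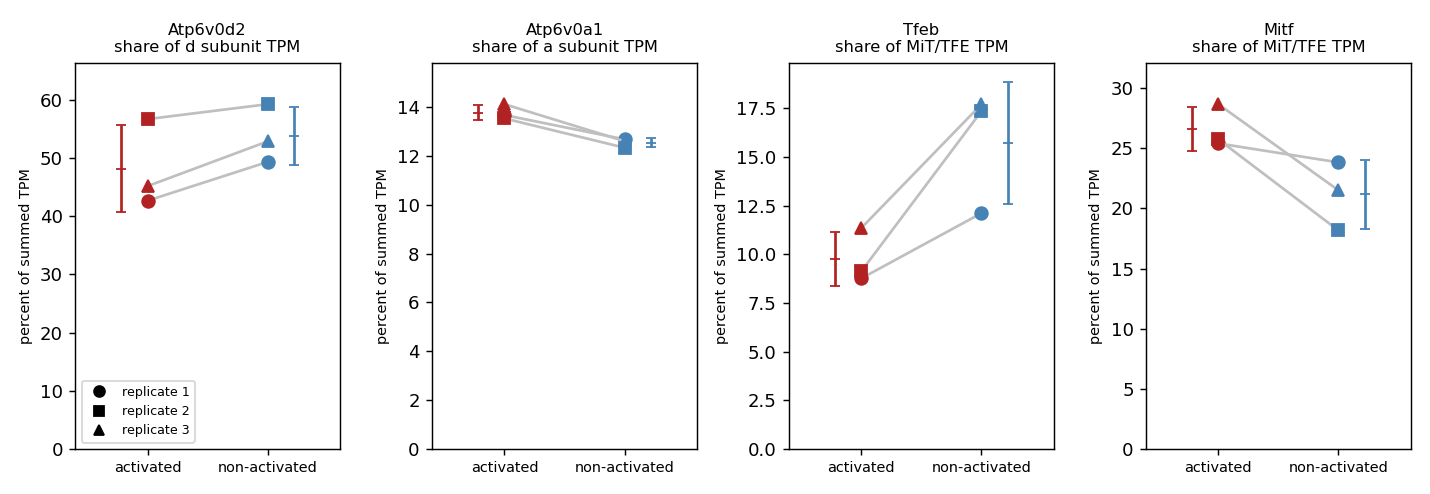
Share of the summed TPM of a subunit family or of the MiT/TFE factors taken by Atp6v0d2, Atp6v0a1, Tfeb and Mitf, in percent, 1 point per library joined by replicate number, with mean ± SD (n = 3). Atp6v0d2 overlaps between groups, and the other 3 do not.

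Promoter sequences show where the MiT/TFE word stands in genes of the set. RefSeq windows on GRCm38.p6, from 250 bases before to 50 bases after each start, matched 31 of the 37 genes with 39 windows. CACGTG, which reads the same on both strands, stood in 8 of the 39 windows (20.5%), against 7.15% of all 32851 windows and 9.84% of the 12945 windows of tested genes. All 8 held it as TCACGTG on either strand, a longer form that contains it and stood in 3.77% of all windows and 5.83% of those of tested genes. The full palindrome TCACGTGA, which contains both, stood in 5 (12.8%), against 0.974% and 1.76%.

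These stretches upstream of the start are printed 5′ to 3′ on the gene's strand for 3 genes that were lower and for Atp6v1a, whose activated values were all above the non-activated ones. The stretch of Atp6v1a lies inside the span of that gene (chr16:44085402-44139702), upstream of a start within it. Capitals mark CACGTG with an adjoining T or A.
Mcoln1, chr8:3500427-3500500, plus strand: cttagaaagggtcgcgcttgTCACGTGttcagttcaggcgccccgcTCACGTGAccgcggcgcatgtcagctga
Lamp1, chr8:13159079-13159160, plus strand: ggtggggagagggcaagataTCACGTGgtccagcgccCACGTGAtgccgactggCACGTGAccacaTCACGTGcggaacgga
Gla, chrX:134601173-134601253, minus strand: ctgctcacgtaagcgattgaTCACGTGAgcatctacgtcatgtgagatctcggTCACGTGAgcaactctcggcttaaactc
Atp6v1a, chr16:44139364-44139411, minus strand: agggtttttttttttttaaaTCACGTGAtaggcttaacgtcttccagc

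Lamp1 had 4 copies within 58 bases of its start, Mcoln1 had 2 within 68 bases and Gla had 2 at 191 to 224 bases. Atp6v1a had 1 at 128 bases from the start inside its span. The other genes with the word were Atp6v0b, Atp6v0d1, Atp6v0e and Glb1. Of the 8 genes, Lamp1, Mcoln1, Gla and Atp6v0d1 were lower by edgeR's test, where 18.9% of the 37 genes and 11.7% of all tested genes were lower. With the block Atp6v0e and Glb1 were lower too and Atp6v1a was higher. That fit called 56.8% of the 37 genes lower and 8.11% higher, against 17.2% and 20.0% of all tested genes. Log2 fold changes lay below 0 for 6 of the 8, beside 30 of the 37 (81.1%) and 49.3% of all tested genes. Those of Atp6v0b and Atp6v1a, 0.15 and 0.22, did not pass edgeR's test. Whether the word goes with a change in level was not tested. A match is a description of letters, not of binding.

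Around these 37 genes, 120 others were listed by their part in the same organelle, and 111 were tested. By edgeR's test 20 (18.0%) were lower and 6 (5.41%) higher, against 11.7% and 15.9% of all tested genes, and the median log2 fold change was -0.16. With the block 36 (32.4%) were lower and 10 (9.01%) higher, against 17.2% and 20.0% of all tested genes. Without both number 1 libraries, and without the block, 17 were lower and 5 higher. Of the 26 called genes, 13 kept their call without each library in turn.

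Of 10 other pump subunits, 4 were tested and 0 passed edgeR's test in either direction, with 1 higher and 1 lower at an unadjusted p under 0.05. DESeq2 called 1 higher and 1 lower, limma on TPM 0, and the blocked fit 1 higher and 2 lower, beside 20.0% and 17.2% of all tested genes. The 11 assembly and regulation genes had 10 tested, 1 higher and 1 lower, beside 15.9% and 11.7% of all tested genes. Rogdi, part of the complex that joins V1 to V0, averaged 99.0 ± 9.54 CPM in the activated and 146 ± 15.9 CPM in the non-activated libraries (SD, n = 3 each; fold 0.677, edgeR adjusted p = 0.00537). Ncoa7, which binds the pump, averaged 129 ± 11.1 CPM against 97.3 ± 8.66 CPM (fold 1.33, edgeR adjusted p = 0.0158), a call lost without non-activated replicate 1 or 2.

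Other membrane proteins had 23 of 24 genes tested, with 0 higher and 4 lower, or 6 lower with the block. Among all tested genes 15.9% were higher and 11.7% lower, or 17.2% lower with the block. DESeq2 and limma on TPM also had 0 higher, as had edgeR at an unadjusted p under 0.05. Tpcn1, an endolysosomal cation channel, averaged 14.0 ± 2.21 CPM in the activated and 29.2 ± 6.13 CPM in the non-activated libraries (fold 0.480). Slc38a9, the arginine sensor that reports to mTORC1, averaged 20.2 ± 1.51 CPM against 29.6 ± 2.67 CPM (fold 0.683). Both were called without each library in turn. Mfsd12, needed for cystine import into the lysosome, was also lower (fold 0.666), a call lost when any 1 of the non-activated libraries was left out.

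Other hydrolases and activators had 33 of 34 genes tested, with 2 higher and 6 lower, or 15 lower with the block. The shares over all tested genes were 15.9% higher and 11.7% lower, or 17.2% lower with the block. Galc, which splits galactosylceramide, averaged 14.5 ± 0.591 CPM in the activated and 42.9 ± 3.33 CPM in the non-activated libraries (SD, n = 3 each; fold 0.338, edgeR adjusted p = 2.1e-05). Pld4, an exonuclease of single-stranded nucleic acid, averaged 27.1 ± 7.31 CPM against 57.6 ± 6.21 CPM (fold 0.469). These are larger changes than those of any of the 37 genes.

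A pair of hydrolases went up. Acp2, a lysosomal acid phosphatase, averaged 186 ± 27.7 CPM in the activated and 113 ± 11.8 CPM in the non-activated libraries (fold 1.64), and Sgsh, a heparan N-sulfatase, averaged 13.6 ± 1.33 CPM against 5.20 ± 1.81 CPM (fold 2.61). Acp2 overlaps Nr1h3 and Ddb2 in RefSeq, and Sgsh overlaps Card14 and Slc26a11, and the labels do not say that strand was kept, so reads of overlapping genes cannot be told apart. Lower pathway genes named here overlap others too: Tpcn1 with Iqcd, Slc38a9 with Gm52034 and Gm18883, and Mfsd12 with 4930404N11Rik. So do Gnptg with Unkl and Tsr3, Fnip2 with Gm17359 and Gm36442, and the higher Ncoa7 with Gm5171. The same holds for 13 of the 37 genes, among them Atp6v0a1 with Mir6928, Laptm5 with Gm38599 and Mitf with Gm15531.

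Genes that sort enzymes to lysosomes, all 17 tested, had 1 higher and 3 lower, beside 15.9% and 11.7% of all tested genes. Gga2, an adaptor for mannose 6-phosphate receptors, averaged 88.6 ± 4.18 CPM in the activated and 162 ± 7.67 CPM in the non-activated libraries (SD, n = 3 each; fold 0.546, edgeR adjusted p = 0.000133). Ap3b1, of the AP-3 coat, averaged 233 ± 15.7 CPM against 367 ± 16.5 CPM (fold 0.633), and Gnptg, a subunit of the enzyme that makes the mannose 6-phosphate tag, was lower at a fold of 0.692. Vps26a, of the retromer, was higher at a fold of 1.19 (edgeR adjusted p = 0.0449), a call lost when any 1 of the 6 libraries was left out. With the block 3 were higher and 5 lower, beside 20.0% and 17.2% of all tested genes.

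Genes that control MiT/TFE factors, all 24 tested, had 2 higher and 6 lower, and 2 and 7 with the block. Over all tested genes 15.9% were higher and 11.7% lower, and 20.0% and 17.2% with the block. Calcineurin, the phosphatase that releases TFEB to the nucleus, had its regulatory subunit Ppp3r1 at 263 ± 44.9 CPM in the activated and 184 ± 4.66 CPM in the non-activated libraries (fold 1.43), a call lost without non-activated replicate 3. Its catalytic subunit Ppp3ca was at 78.3 ± 12.3 CPM against 113 ± 6.98 CPM (SD, n = 3 each; fold 0.692). Among the Rag GTPases that hold MiT/TFE factors at the lysosome, Rragd was lower at 7.24 ± 1.37 CPM in activated against 13.3 ± 1.73 CPM in non-activated libraries (fold 0.541), and Rraga was higher at a log2 fold change of 0.29, a call kept only without activated replicate 3. Fnip2, a partner of folliculin, was lower at 123 ± 6.02 CPM in activated against 191 ± 19.6 CPM in non-activated libraries (fold 0.645, edgeR adjusted p = 0.00168).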

How the data were processed

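RNA-seq of 6 libraries was used. Per the labels' protocols, libraries came from 200 ng of total RNA and were read as single reads of 60 bases. Per the file headers, the authors deposited RSEM-style tables with an expected count, a TPM value and an effective length per gene; FPKM was not used. Per the submitters' processing notes the build is GRCm38; for the RNA aligner nothing was given in the sources used here. Gene IDs were matched to symbols (41597 of 41813) in a table of gene names, and positions came from RefSeq on GRCm38.p6.

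Rounded expected counts went into edgeR 4.0.16 (R 4.3.3; genes filtered by filterByExpr, TMM, glmQLFit, glmQLFTest, group only; adjustment over 13946 genes, threshold 0.05); an SE is the log2 fold change over the root of F. CPM are TMM-scaled. The procedure was tested on simulated data. Alternatives used DESeq2 1.42.0, limma 3.58.1 on log2(TPM + 1) or log2(TPM + 0.1), other scaling, no filter, libraries left out and a replicate block. Common biological variation was 16.9%, so at these depths spread between libraries, not counting, limits precision. Replicates differed by more than sampling noise (chi-square per degree of freedom 13.96 to 65.12).

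The groups share replicate numbers in their titles. Deviations from group means correlated at 0.398, 0.313 and 0.187 for the same number and at -0.315 to 0.040 otherwise, so the numbers pair the libraries as far as these data tell; what a number marks is not stated in the labels.

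Genes, lists and tests were chosen with earlier results of these data known. From each pathway list, at most the 3 called genes of smallest adjusted p in each direction were named.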

Additional observations from a re-analysis of the deposited data

How the results depend on the processing

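In edgeR, 2 of the 37 genes were higher and 7 lower. Higher genes numbered 1 with limma on log2(TPM + 1), with log2(TPM + 0.1) and with limma on TPM and a replicate block, and 0 on TPM without a filter, where 3 had an unadjusted p under 0.05. Lower genes numbered 13 with DESeq2 and with edgeR without a count filter, 4 with limma at either pseudocount, 1 on TPM without a filter, 21 with the replicate block in edgeR or DESeq2 and 14 with it in limma on TPM. With the block, leaving out pairs 1, 2 and 3 gave 5, 0 and 0 higher and 23, 10 and 17 lower genes. Of all tested genes 3848 passed, against 2516 on log2(TPM + 0.1), 1882 on TPM without a filter and 5184 with the block. Of pathway genes, 6 higher became 3 on TPM without a filter, 10 with the block, and 14, 3 and 5 with the block without pairs 1, 2 and 3. The 20 lower became 13 with limma at either pseudocount, 8 without its filter, 36 with the block, 34 with DESeq2 and the block, and 38, 22 and 33 with the block without pairs 1, 2 and 3. Leaving out libraries or pairs without the block gave 1785 to 3629 genes in all, 0 to 2 higher and 0 to 15 lower of the 37, and 1 to 6 higher and 9 to 24 lower pathway genes. The Atp6v0d2 share difference then lay between -9.91 and -2.89 percentage points. The DESeq2, limma and pair-wise fits with the block were chosen after seeing the data. The cause of these differences was not tested.

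Over 21 alternatives, 777 values of the 37 genes gave 598 with the same call, 94 newly past the threshold, 60 no longer past it and 25 of opposite sign, in 8 genes that edgeR did not call. On the log2 scale, with libraries or pairs left out, Atp6v1e1 ran from -0.0497 to 0.101, Laptm4a from -0.0492 to 0.0981, Atp6v1g1 from -0.0594 to 0.0333, Atp6v1h from -0.174 to 0.0251, Atp6v0b from -0.000378 to 0.253, Atp6v1f from -0.182 to 0.000525, Atp6ap1 from -0.246 to 0.0104 and Gusb from -0.300 to 0.0271. Atp6v1e1 was also -0.0479 with limma at a pseudocount of 1 (with or without the filter or the block), -0.0481 at 0.1 and -0.0123 with the block without pair 3. Laptm4a was also -0.00435 with upper-quartile factors, -0.00188 without a filter and -0.0327 with the block without pair 3. Atp6v1g1 was 0.00490 with the block without pair 3, and Atp6v1h 0.0258 with the block without pair 1.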
